A study of Arabidopsis thaliana with 6 samples.

Results

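The marneral and thalianol clusters are 2 runs of neighbouring genes on chromosome 5 of Arabidopsis thaliana that together make root triterpenes. The genes described here are 3 of the marneral cluster, CYP705A12 (AT5G42580), CYP71A16 (AT5G42590) and MRN1 (AT5G42600), and 5 of the thalianol cluster, AT5G47950, AT5G47980, CYP705A5 (AT5G47990), CYP708A2 (AT5G48000) and THAS1 (AT5G48010). They were found as the probes whose deposited name contains one of these locus identifiers, and each of the 8 genes had 1 probe among 35635 probes for 35475 gene identifiers. The genes were chosen by measured values of the same comparison that is described below, so their differences are given as a description with no test.

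The sORF2146ox plants were transgenic seedlings that overexpress the small open reading frame sORF2146, and the vector control seedlings carried the empty pMDC32 vector. Both groups were 14-day-old seedlings grown on half-strength Murashige and Skoog medium, with a day of 14 hours of light and a night of 10 hours. RNA of 3 biological replicates per group was hybridised to 6 one-colour Agilent arrays, and how many independent transgenic lines stood behind the replicates was not given in the sources used here. The series' title ties the study to the role of sORF2146 in flowering.

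No probe carried the name sORF2146, so the overexpression itself was not checked here. The share of probes well above background was 65.3% to 68.8% per array, and no spot was saturated. The mean correlation of an array with the others of its group, across genes, ranged from 0.974 to 0.992. Of markers for the organs that a seedling holds, 20 of 20 root genes and 15 of 15 shoot genes were well above background on all arrays. All sORF2146ox arrays lay on one slide and all vector control arrays on another, so effects of slide and of genotype cannot be told apart in any value below.

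In plants, triterpenes start from 2,3-oxidosqualene, which an oxidosqualene cyclase folds into a ring scaffold, while the same precursor feeds membrane sterols through cycloartenol synthase. In both Arabidopsis clusters the cyclase gene sits beside genes of cytochromes P450 that oxidise the scaffold, and the thalianol cluster also holds acyltransferase genes. The clusters are known for expression in roots, and their products shape growth and the bacteria that live on the root. In RNA of whole seedlings, fewer cells that express a gene and less RNA per cell cannot be told apart.

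Of the 8 genes, 6 had a lower and 2 a higher mean in sORF2146ox, and both cyclase genes, MRN1 and THAS1, showed the largest differences with the scaling used here. With normexp MRN1, at -0.44, was smaller in size than CYP708A2, at -0.53, and without vector control replicate 3 THAS1, at -0.57, was smaller in size than AT5G47980, at 0.67. The 2 cyclases were also the only members whose 3 sORF2146ox arrays all lay below the 3 control arrays, a pattern that 17.6% of the 23394 genes tested showed in that direction and 23% in the other. The median difference over the 8 genes was -0.54 on the log2 scale, sORF2146ox minus vector control, beside 0.03 over all genes tested. The sORF2146ox arrays were dimmer, and without scaling every difference was shifted by -0.31, so that the medians were -0.85 for the 8 genes and -0.28 for all genes. One member, MRN1, passed limma's adjusted threshold of 0.05 as lower, where 2.65% of all genes did, and no member passed as higher, where 2.51% did. Since this comparison chose the genes, nothing is read from these counts.

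MRN1 encodes marneral synthase, the cyclase that gives the marneral cluster its scaffold. Its processed signal, the spot intensity after the scanner software's background subtraction, was 4.09, 5.02 and 2.26 on the sORF2146ox arrays and 59.5, 21.4 and 79.4 on the vector control arrays. The probe was well above background on all 3 control arrays and on none of the sORF2146ox arrays, and the groups were far apart. On the scaled log2 signal, which is the log2 processed signal minus the 75th percentile of its array, the means were -7.98 ± 0.66 in sORF2146ox and -4.60 ± 0.99 in the vector control (SD, n = 3 each). Against a detection floor, MRN1 was 4.5-fold lower in processed signal. The floor of an array is its dimmest signal well above background. The control mean was set against the higher of this floor and the probe's own signal on the sORF2146ox arrays. This floor-based fold depends on the background treatment and is no strict lower limit. It was 3.4-fold when vector control replicate 3 was left out and 6.59-fold when vector control replicate 2 was. The fitted log2 difference was -3.38 with an SE of 0.57. It was -0.44 (SE 0.50) with normexp background correction, which adds an offset, so it was smaller in size than its SE. On the raw foreground signal, which keeps the background, it was -0.62 (SE 0.24). Why these 2 values were smaller was not tested.

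CYP71A16, the marneral oxidase that acts on the product of MRN1, did not share that gap. Its processed signal was 521, 588 and 507 in sORF2146ox and 410, 605 and 944 in the vector control. The control arrays held both the lowest and the highest of the 6 values, so the sORF2146ox arrays lay inside the control range. The scaled means were -0.76 ± 0.25 in sORF2146ox and -0.87 ± 0.65 in the vector control (SD, n = 3 each), a log2 difference of 0.12 with an SE of 0.34. Its sign turned without vector control replicate 1, where the difference was -0.21.

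CYP705A12 is a further cytochrome P450 gene of the marneral cluster. Its processed signal was 22, 35.7 and 11.7 in sORF2146ox and 20.4, 42.4 and 73.4 in the vector control. The lowest value was on a sORF2146ox array and the highest on vector control replicate 3, and the ranges overlapped. The log2 difference was -0.62 with an SE of 0.63, from scaled means of -5.44 ± 0.89 in sORF2146ox and -4.82 ± 0.97 in the vector control (SD, n = 3 each). Within the marneral cluster, then, the cyclase was not well above background on any sORF2146ox array, while both P450 genes were well above it on all 6 arrays. CYP705A12 was near the floor, at -6.29 on sORF2146ox replicate 3, where the dimmest signal well above background was -6.81. The flag depends on each probe's brightness, so it does not rank the levels of these genes.

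THAS1 encodes thalianol synthase, the cyclase of the other cluster. Its processed signal was 472, 465 and 412 in sORF2146ox and 705, 993 and 2199 in the vector control. All sORF2146ox arrays were lower than all control arrays, but the control values themselves lay far apart. The scaled means were -1.01 ± 0.18 in sORF2146ox and 0.03 ± 0.88 in the vector control (SD, n = 3 each), a log2 difference of -1.05 with an SE of 0.44, or 2.07-fold lower. Without vector control replicate 3 the difference was -0.57, and without vector control replicate 1 it was -1.43.

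CYP708A2, thalianol hydroxylase, oxidises thalianol as the next step of the pathway. Its processed signal was 313, 314 and 269 in sORF2146ox and 385, 520 and 939 in the vector control. The unscaled values did not overlap, but after scaling the highest sORF2146ox array, at -1.38, passed the lowest control array, at -1.60. The log2 difference was -0.63 with an SE of 0.35, from scaled means of -1.61 ± 0.20 in sORF2146ox and -0.98 ± 0.70 in the vector control (SD, n = 3 each). Without vector control replicate 3 it was -0.25.

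CYP705A5, thalian-diol desaturase, acts after CYP708A2. Its processed signal was 365, 523 and 339 in sORF2146ox and 241, 563 and 1054 in the vector control. The sORF2146ox values lay wholly inside the control range, whose ends were the lowest and highest values of all 6 arrays. The scaled means were -1.18 ± 0.46 in sORF2146ox and -1.11 ± 1.12 in the vector control (SD, n = 3 each), a log2 difference of -0.07 with an SE of 0.58. The sign rested on single arrays, with values between -0.65 and 0.46 when each array was left out in turn.

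The remaining members, AT5G47950 and AT5G47980, carry no symbol in the gene table used here. AT5G47950 had a processed signal of 119, 132 and 102 in sORF2146ox and 120, 222 and 302 in the vector control. In processed signal vector control replicate 1 lay among the sORF2146ox arrays and the other controls above them. After scaling vector control replicate 1, at -3.28, was the lowest of all arrays. The scaled log2 difference was -0.46 with an SE of 0.38. AT5G47980 had 114, 167 and 103 in sORF2146ox and 83.9, 117 and 196 in the vector control. It was the member with the most positive scaled log2 difference, 0.32 with an SE of 0.40, and its groups overlapped. The scaled means of AT5G47950 were -2.96 ± 0.28 in sORF2146ox and -2.49 ± 0.72 in the vector control, and those of AT5G47980 were -2.86 ± 0.49 in sORF2146ox and -3.18 ± 0.66 in the vector control (SD, n = 3 each). A probe's brightness depends on its sequence, so these levels cannot be compared between genes.

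**Figure D1:**
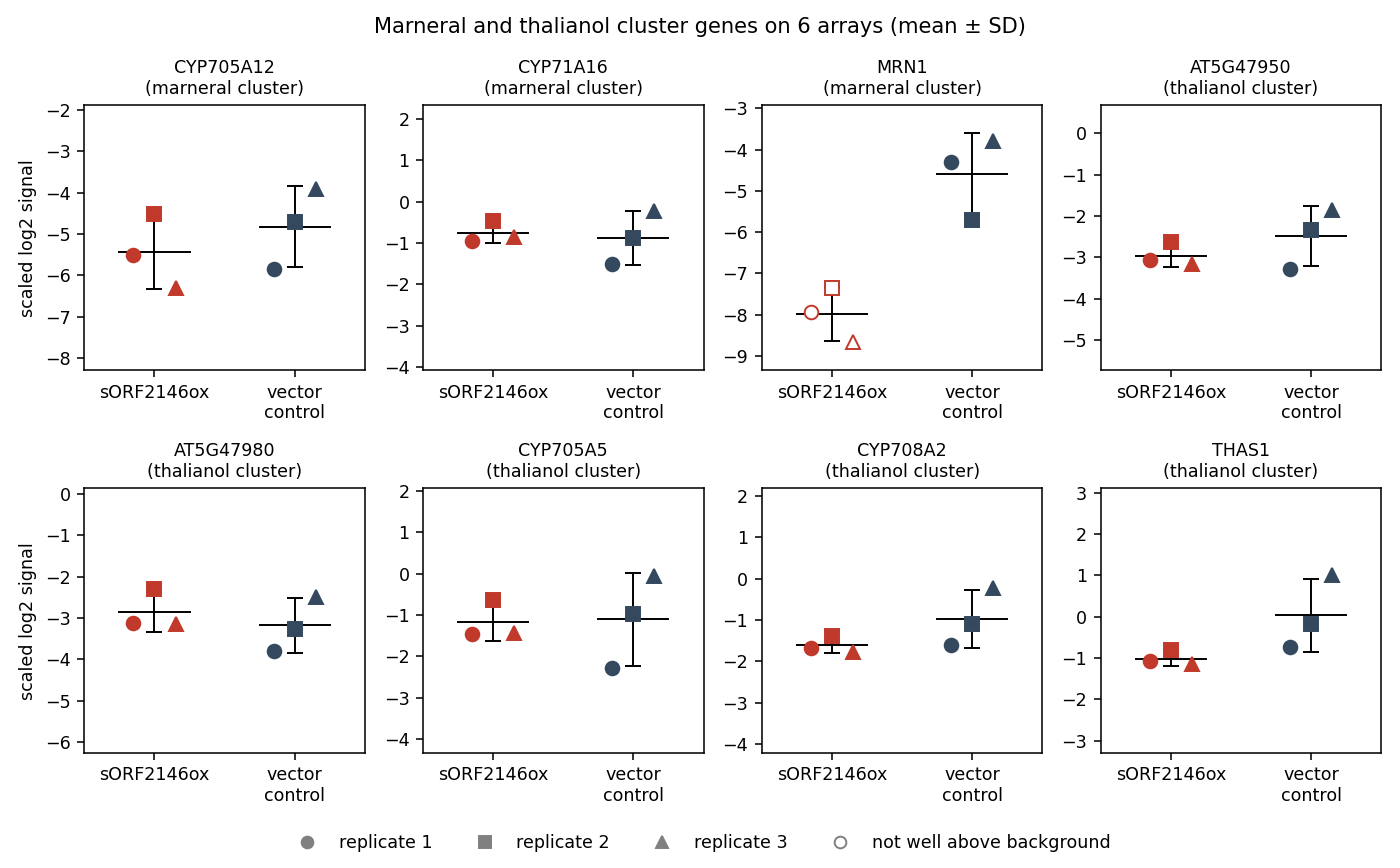
Scaled log2 signal (log2 processed signal minus the array's 75th percentile, vertical axis) of each cluster gene on the 3 sORF2146ox arrays (red, left) and the 3 vector control arrays (blue, right). Each panel spans the same number of log2 units, horizontal lines are means, error bars are SD over 3 arrays, and open symbols mark arrays where the probe was not well above background. MRN1 and THAS1 are the panels in which the groups do not overlap, and vector control replicate 3 (blue triangle) is the highest control array in all 8.

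The 8 genes shared a pattern among arrays within each group. Vector control replicate 3 was the highest control array for 8 of 8 genes, against 35% of all genes, and sORF2146ox replicate 2 the highest sORF2146ox array for 8 of 8, against 32.8%. In the lists described below, vector control replicate 3 was the highest control array for 16 of 20 supply, 9 of 12 sterol, 7 of 10 other-cluster and 12 of 20 root genes. It was so for 3 of 10 other cyclases, 3 of 12 chromatin, 4 of 15 shoot and 5 of 22 neighbouring genes. Both held together in 8 of 8 cluster genes and in 12.8% of 23389 genes with no missing spot. They also did in 6 of 20 root, 3 of 12 sterol, 4 of 20 supply, 3 of 15 shoot and 1 of 12 chromatin genes. This order of arrays was looked at after the values had been seen, so it is a description without a test. For MRN1 the order of the sORF2146ox arrays rests on signals not well above background. The 75th percentile was 997, 817 and 916 on sORF2146ox arrays 1, 2 and 3, so scaling lifted replicate 2 relative to the others. The shared order held for all 8 genes with quantile normalization (12.5% of all genes) and with the percentile over detected probes (12.6%). It also did with the raw foreground (17.8%) and in the authors' table (12.5%). Without scaling it held for 7 of 8 (3.25% of all genes), where THAS1 was the exception. With normexp background correction it held for 3 of 8 (8.83% of all genes).

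The spread among control arrays was also wide in these genes. The SD was larger in the vector control than in sORF2146ox for 8 of 8 genes, where 65.3% of all genes had it so. The median SD over the 8 genes was 0.37 in sORF2146ox and 0.80 in the vector control, while over all genes tested it was 0.12 in sORF2146ox and 0.17 in the vector control. After scaling, vector control replicate 3 was the highest of all 6 arrays for 7 of 8 genes and for 12.4% of all genes, and the exception was AT5G47980, which was highest on sORF2146ox replicate 2. The median deviation from a gene's own mean on the control arrays 1, 2 and 3 was -0.70, 0.41 and 1.23 for the marneral genes and -0.56, 0.19 and 1.06 for the thalianol genes. On the sORF2146ox arrays 1, 2 and 3 it was -0.37, 0.34 and -1.17 for the marneral genes and -0.34, 0.09 and -0.45 for the thalianol genes.

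**Figure D2:**
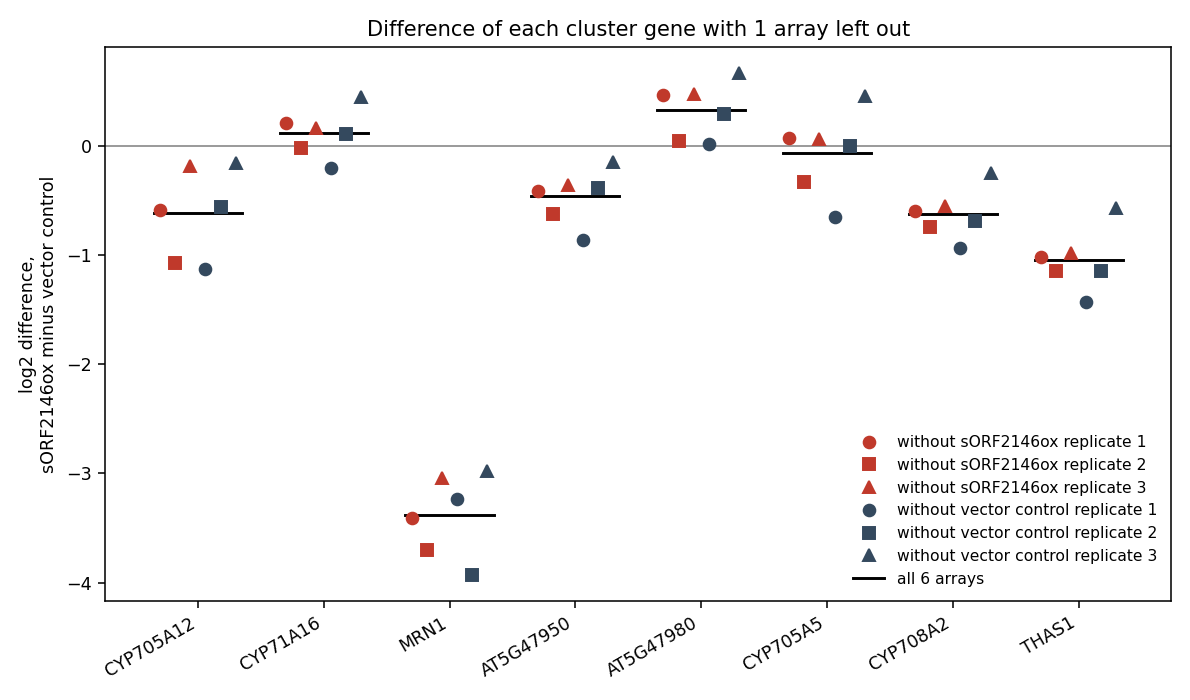
Log2 difference (sORF2146ox minus vector control, vertical axis) of each cluster gene with all 6 arrays (black line) and with each array left out in turn (red symbols for sORF2146ox arrays, blue for vector control arrays). MRN1 stays between -3.94 and -2.98 and THAS1 between -1.43 and -0.57, while CYP71A16 and CYP705A5 lie on both sides of 0. Leaving out vector control replicate 3 (blue triangle), the highest control array of each gene, gives the highest value for 8 of 8 genes.

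Leaving out vector control replicate 3 gave the highest difference for 8 of 8 genes, and leaving out vector control replicate 1 the lowest for 7 of 8, with MRN1 as the exception. These counts largely follow from the order and wider spread of the control arrays given above and add no separate result. Without vector control replicate 1 the number of members with groups that did not overlap, lower in sORF2146ox, was 4, where the share over all genes was 24.1%. Without sORF2146ox replicate 2 that number was 3, beside 20.5% of all genes, and in the other cases it was 2, beside 19.9% to 24.4% of all genes.

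Likeness between genes was measured as Pearson's r of the scaled log2 signal over the 6 arrays, across both groups. THAS1 and CYP708A2, which encode consecutive enzymes, had an r of 0.987, the fourth highest of THAS1 with any gene tested. Above it stood AT1G02816 at 0.994, BGAL4, a beta-galactosidase gene, at 0.994 and AT4G29700 at 0.989. Within its own cluster THAS1 had an r of 0.899 with AT5G47950, 0.695 with CYP705A5 and 0.369 with AT5G47980, at ranks 188, 1607 and 5579. THAS1 and CYP708A2 both deviated most from their own means on vector control replicate 3, by 1.49 and 1.06 log2 units.

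MRN1 was not close to its own neighbours by this measure. Its r was 0.512 with CYP705A12, -0.002 with CYP71A16 and 0.781 with THAS1. Among the genes tested these stood at ranks 6074, 10653 and 2024 by likeness to MRN1. The genes most like it were UMAMIT42, a member of a family of amino acid transporters, at 0.991, AT5G06130 at 0.990, AT4G22610 at 0.984 and GSTU19, a glutathione S-transferase gene, at 0.984. Their log2 differences, which this choice bears on and which are given without a test, were -1.81 for AT4G22610, -0.34 for UMAMIT42 and -0.16 for GSTU19. MRN1 enters these correlations with sORF2146ox signals under the detection floor.

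The neighbourhoods were read from gene order in the RefSeq table of TAIR10.1, with the genes between members and the 5 nearest tested genes on each side. Of 22 such genes, 1 fell and none rose by limma's adjusted threshold, where 2.65% of all genes fell and 2.51% rose. Their median difference was -0.08, or -0.40 without scaling. The gene that fell was AT5G42635, near the marneral cluster, with scaled means of 0.82 ± 0.06 in sORF2146ox and 1.32 ± 0.09 in the vector control (SD, n = 3 each), a difference of -0.51 (SE 0.083, limma adjusted p = 0.038). Neither this call nor any call in the gene lists below held with normexp or with the replicate number as a block. None of the 12 tested genes around and inside the thalianol cluster passed in limma, with 3 of them at an unadjusted p under 0.05, where 30.8% of all genes tested were.

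AT5G42570, just before CYP705A12, had a difference of 0.06 (limma adjusted p = 0.710). RABA4C, a Rab GTPase gene, and AT5G47970 lie between AT5G47950 and AT5G47980, and had differences of -0.11 (limma adjusted p = 0.686) and 0.12 (limma adjusted p = 0.537). AT5G47940 and AT5G48020, which flank the thalianol cluster, had differences of -0.22 (limma adjusted p = 0.167) and -0.10 (limma adjusted p = 0.714). After MRN1 the nearest tested gene was ATS, a transcription factor gene of ovule development, with a difference of 0.92 (limma adjusted p = 0.066), larger in size than that of 6 of the 8 cluster genes and with groups that did not overlap.

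Farther out, AT5G48050 resembled MRN1 in that its probe was well above background on all 3 control arrays and on none of the sORF2146ox arrays. Against the same kind of floor it was 1.83-fold lower, which again is no strict lower limit. Its scaled means were -8.60 in sORF2146ox and -5.89 in the vector control (limma adjusted p = 0.053), which did not pass. The probe entered the test only through the control arrays, the group in which it was higher. RBOHD, the NADPH oxidase of the defence oxidative burst, had a difference of -0.79 (limma adjusted p = 0.078). The shared order of arrays described above held in 1 of the 22 neighbouring genes.

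**Figure D3:**
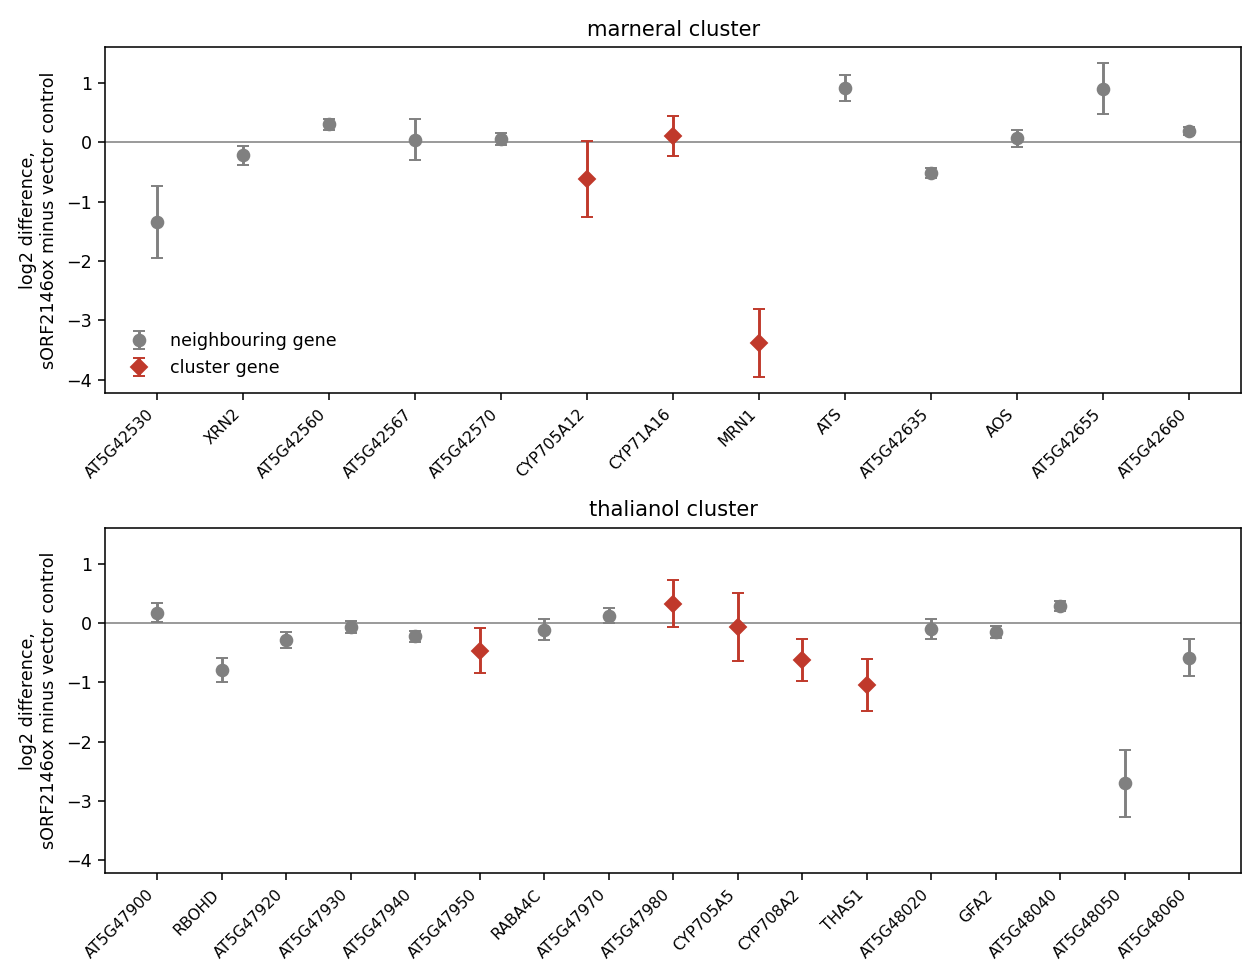
Log2 difference (sORF2146ox minus vector control, vertical axis, error bars SE) of the tested genes in gene order along each cluster, with cluster genes as red diamonds and neighbouring genes as grey circles, evenly spaced and not to genomic scale. The cluster genes have wide errors, MRN1 lies at -3.38, and the neighbours on both sides lie mostly within 1 log2 unit of 0. MRN1 and AT5G48050 were not well above background in sORF2146ox, and their plotted values are fitted differences and not floor-based folds.

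SDR4 and AT1G66800 are genes outside the clusters that were set beside them as a pair. SDR4, a short-chain dehydrogenase gene, had scaled log2 signals of -5.44, -4.44 and -5.63 in sORF2146ox and -4.97, -4.87 and -4.43 in the vector control. AT1G66800 had -5.08, -4.08 and -5.23 in sORF2146ox and -4.78, -4.28 and -3.30 in the vector control. Both genes showed the shared order of arrays, with sORF2146ox replicate 2 and vector control replicate 3 highest in their groups. Their groups overlapped, and their differences of -0.41 (limma adjusted p = 0.441) and -0.68 (limma adjusted p = 0.366) did not pass. Neither had an unadjusted p under 0.05.

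The other oxidosqualene cyclases make sterol precursors or triterpenes outside these clusters, and no test set them against MRN1 and THAS1. Of 11 listed, 10 were tested, and 1 rose and none fell, where 2.51% of all genes rose and 2.65% fell. The median difference was 0.20, which turned to -0.12 without scaling. CAMS1, camelliol C synthase, rose by 0.84 (SE 0.097, limma adjusted p = 0.025), from scaled means of -4.96 ± 0.08 in sORF2146ox and -5.80 ± 0.12 in the vector control (SD, n = 3 each). CAS1, the cycloartenol synthase at the head of sterol synthesis, had a difference of 0.19 (limma adjusted p = 0.234). LUP5 had 0.74 (limma adjusted p = 0.146), and BAS, a beta-amyrin synthase well above background on 1 of 3 control arrays, had 1.52 (limma adjusted p = 0.217). The means of 4 were lower, among them LAS1, lanosterol synthase, at -0.88 (limma adjusted p = 0.276) and PEN1, the arabidiol synthase, at -0.52 (limma adjusted p = 0.429), which are named after their values were seen. None of the 10 showed the shared order of arrays.

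Enzymes of the other known triterpene clusters, for arabidiol, baruol and tirucalladienol, gave 2 genes that rose and none that fell among 10 tested of 12 listed. Over all genes 2.51% rose and 2.65% fell. The median difference of the list was 0.33, or 0.02 without scaling. BIA1, an acyltransferase gene near baruol synthase, rose by 1.101 (SE 0.183, limma adjusted p = 0.040), with -0.426, -0.472 and -0.596 scaled log2 units in sORF2146ox and -1.998, -1.437 and -1.361 in the vector control. CYP705A4, a cytochrome P450 gene of the same region and the same subfamily as CYP705A5, rose by 0.47 (SE 0.089, limma adjusted p = 0.047). CYP716A1 had a difference of 0.92 (limma adjusted p = 0.083) and CYP705A2 one of 0.86 (limma adjusted p = 0.201). Both were well above background on 2 of 3 control arrays. They entered the test only through the sORF2146ox arrays, the group in which they were higher. The shared order of arrays held in 2 of the 10.

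The mevalonate pathway and its squalene branch supply oxidosqualene to cyclases. Of its 20 genes 1 rose and 1 fell, where 2.51% of all genes rose and 2.65% fell. The median difference was 0.22, or -0.09 without scaling. HMG1, the reductase that limits the mevalonate pathway, rose by 0.59 (SE 0.082, limma adjusted p = 0.031), from 4.71 ± 0.04 in sORF2146ox and 4.11 ± 0.10 in the vector control (scaled log2 mean ± SD, n = 3 each). SQE6, of the squalene epoxidase family, fell by 1.12 (SE 0.158, limma adjusted p = 0.031), with -2.27, -2.09 and -1.70 in sORF2146ox and -0.93, -0.96 and -0.81 in the vector control. Without scaling 2 genes of the list fell and 0 rose, beside 2466 and 97 of all 23394 genes, so HMG1 was not called higher there. SQE2 had a difference of 0.52 (limma adjusted p = 0.056) and XF1, the squalene epoxidase needed for normal root growth, one of 0.45 (limma adjusted p = 0.091). The median deviation of the list was -0.33, -0.03 and 0.05 on control arrays 1, 2 and 3, and 0.16, 0.12 and 0.07 on sORF2146ox arrays 1, 2 and 3.

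The sterol branch, which uses the same precursor, had higher sORF2146ox means in 12 of 12 genes, with a median of 0.28. Of all genes tested, 12636 of 23394 had a higher mean. Without scaling it was 6 of 12, with a median of -0.03, beside 4133 of 23394. Under each of the other settings of scale or background it was 11 of 12. None passed in limma, 6 of 12 had an unadjusted p under 0.05, beside 30.8% of all genes, and 8 had groups that did not overlap, where 23% of all genes did so in this direction. STE1, a sterol desaturase, had a difference of 0.53 (limma adjusted p = 0.077), and SMO2-1, a sterol methyl oxidase, one of 0.46 (limma adjusted p = 0.079). SMT3, a sterol methyltransferase, had 0.57 (limma adjusted p = 0.150) and FK, a sterol reductase, 0.34 (limma adjusted p = 0.143). The median deviation of the list was -0.44, -0.07 and 0.05 on control arrays 1, 2 and 3, so it was lowest on vector control replicate 1. On sORF2146ox arrays 1, 2 and 3 it was 0.12, 0.12 and 0.14.

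Chromatin factors that set H2A.Z and the Polycomb mark were listed because both kinds of chromatin are known on plant metabolic clusters. Of 12 tested none passed in limma, 2 of 12 had an unadjusted p under 0.05, beside 30.8% of all genes, 1 passed with trend and robust variance, and the median difference was 0.13, or -0.19 without scaling. SEF, a subunit of the complex that loads H2A.Z, had a difference of 0.34 (limma adjusted p = 0.055), and ARP6, of the same complex, one of 0.27 (limma adjusted p = 0.100). SWN, a Polycomb methyltransferase, had 0.14 (limma adjusted p = 0.323), and HTA9, which encodes an H2A.Z, 0.17 (limma adjusted p = 0.415).

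**Figure D4:**
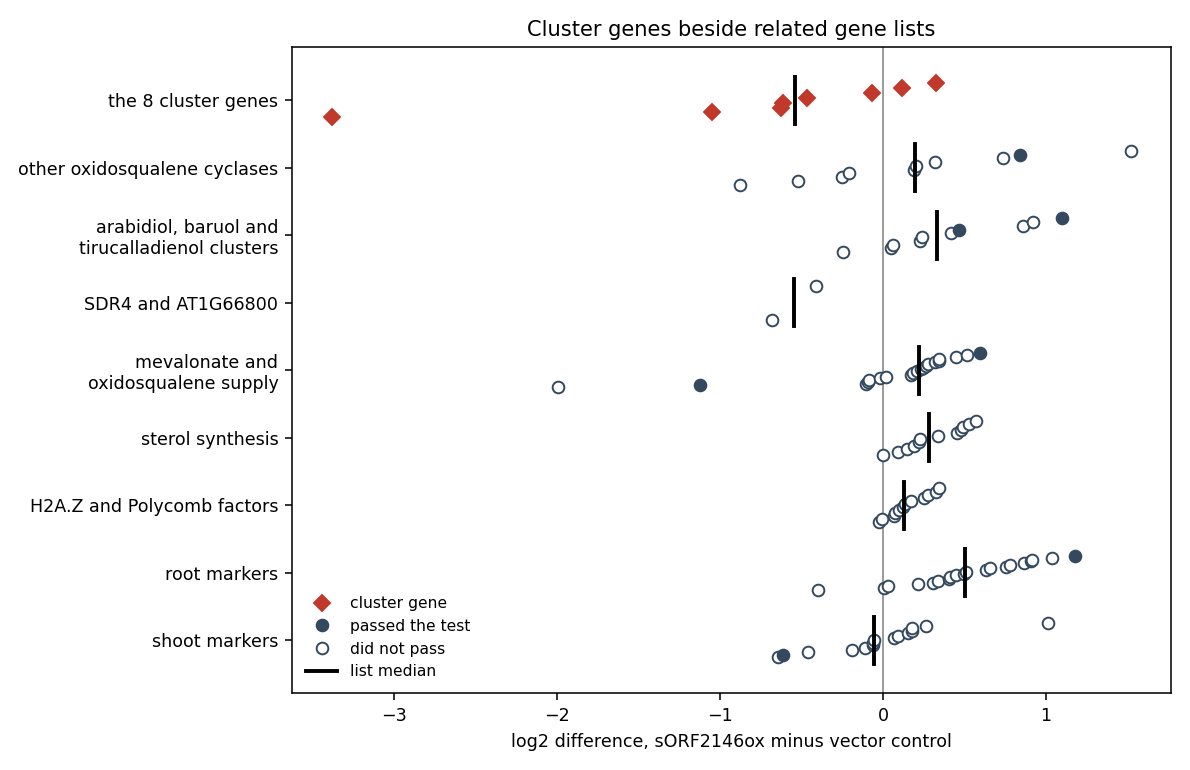
Log2 difference (sORF2146ox minus vector control, horizontal axis) of every tested gene in the 8 cluster genes and in related gene lists, with black bars for list medians. Filled circles passed limma's adjusted threshold and open circles did not, and the red diamonds of the cluster genes carry no test. The median of the cluster genes is -0.54, and the shoot markers, at -0.06, and the pair SDR4 and AT1G66800 also have medians below 0.

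Since both clusters are known from roots, root markers were set beside them. Of 20 root markers 1 rose and none fell, where 2.51% of all genes rose and 2.65% fell. A higher mean in sORF2146ox was found in 19 of them, beside 12636 of all 23394 genes, and the median difference was 0.50. Without scaling 15 had a higher mean, beside 4133 of 23394, with a median of 0.19. GPAT5, a suberin acyltransferase gene, rose by 1.18 (SE 0.213, limma adjusted p = 0.044), with -0.02, 0.24 and -0.56 scaled log2 units in sORF2146ox and -1.41, -1.18 and -1.29 in the vector control. The other suberin genes RWP1, CYP86A1 and FAR4 had differences of 0.51, 0.91 and 0.50 (limma adjusted p = 0.051, 0.064 and 0.075 in that order). The summed root signal, relative to each array's 75th percentile, was 32.5, 34.4 and 27.8 in sORF2146ox and 18.3, 24.1 and 28.2 in the vector control, so vector control replicate 3 lay inside the sORF2146ox range. This sum adds unlogged signal, so the brightest genes of the list weigh most in it.

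The shoot markers summed to 369, 386 and 349 in sORF2146ox and 372, 376 and 385 in the vector control, which overlapped. In this sum, too, the brightest genes weigh most. Of 15 shoot markers 1 fell and none rose, where 2.65% of all genes fell and 2.51% rose. FMA, a guard cell transcription factor gene, fell by 0.61 (SE 0.090, limma adjusted p = 0.032). CA1, a carbonic anhydrase gene, had a difference of -0.46 (limma adjusted p = 0.068), LHCB4.1, of the light harvesting antenna, one of 0.16 (limma adjusted p = 0.231), and CER1, of wax synthesis, one of -0.64 (limma adjusted p = 0.297). On the control arrays 1, 2 and 3 the median deviation of the root markers was -0.78, -0.08 and 0.14, lowest on the same array as for the cluster genes. The root marker levels moved with the groups and arrays as given, and their part in the cluster values was not tested.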

How the data were processed

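Per the file headers, Agilent Feature Extraction 11.5.1.1 made the deposited spot intensity, background-subtracted and detrended within each array. Its flags (other values, 0 or 1, per the file headers) mark spots well above background and outliers. The method behind the deposited intensity table of the whole series is not given in the sources used here. Since 96.3% of its ranks held one value across columns (relative tolerance 1e-06), it was treated as quantile normalized.

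The log2 processed signal minus each array's 75th percentile was fitted with lmFit and eBayes (limma 3.58.1, R 4.3.3), Benjamini-Hochberg adjusted over 23394 genes, threshold 0.05. Of these, 588 rose and 621 fell. Probes entered if well above background on all 3 arrays of a group; the brightest probe stood for a gene, and outlier spots were missing. All 8 cluster genes entered, MRN1 through the control arrays. Normexp (offset 50) used median signals. Replicates are biological, and same-numbered arrays did not deviate together. Of tested genes, 89.6% matched the RefSeq table of TAIR10.1, the source of symbols. Figures were drawn with matplotlib 3.10.9.

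The cluster genes and lists were chosen with earlier results of these data known. Named are all cluster genes, genes between them, up to 4 genes per list and of the neighbours with the smallest adjusted p, the 4 genes most like MRN1 and THAS1, and, chosen after their values were seen, the nearest neighbours of each cluster.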

Additional observations from a re-analysis of the deposited data

How the results depend on the processing

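MRN1 stayed below 0 in 16 of 16 alternatives, from -3.94 to -0.44. The smallest sizes were those for normexp (-0.44, SE 0.50) and raw foreground signal (-0.62, SE 0.24), and the reason was not tested. THAS1, CYP708A2 and AT5G47950 also stayed below 0 and AT5G47980 above 0. Signs turned for CYP705A12 with normexp (0.0125), for CYP705A5 with normexp (0.0864), raw foreground (0.0540) and left-out arrays (-0.65 to 0.46), and for CYP71A16 without scaling (-0.20) and with left-out arrays (-0.21 to 0.44). Members lower with groups that did not overlap numbered 1 with normexp (8.48% of all genes), 1 with raw foreground (14.0%), 3 without scaling (42.8%) and 2 to 4 with left-out arrays (19.9% to 24.4%).

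Genes called numbered 1209 in the values reported, 4 with normexp, 2563 without scaling, 188 with no filter on dim probes, 550 with probes well above background on 1 array, 14 with the replicate block, and 28 to 1196 with left-out arrays (28 without vector control replicate 2, and 46, 48 and 50 without sORF2146ox replicates 1, 2 and 3). The replicate block left 0 calls in the cyclases, supply, other clusters, root, shoot and neighbour lists, and same-numbered arrays had correlations of deviations of -0.0857, -0.000468 and -0.0226. No call in these lists held in all settings. With normexp the same 6 lists had 0 calls. With no filter on dim probes the supply, other-cluster, root, shoot and neighbour lists had 0, and with 1 array well above background the other-cluster, root and neighbour lists had 0. Without scaling the cyclases had 0, the other clusters 1, shoot 2 and neighbours 3. Under that setting the supply list had 2 lower and 0 higher, and root had 1 lower and 1 higher. With raw foreground the sterol list had 1, the other clusters 1 and root 2, and with the percentile over detected probes the other clusters had 1. Neighbours had 2 with quantile normalization and 2 in the authors' table. With trend and robust variance chromatin had 1, root 2, shoot 2 and neighbours 2. With left-out arrays the ranges were 0 to 2 for cyclases, 0 to 2 for supply, 0 to 1 for the other clusters, 0 to 0 for root, 0 to 1 for shoot and 0 to 2 for neighbours. The cause of these moves was not tested. Without scaling the median of all genes was -0.28, and calls were split 97 higher and 2466 lower. That split was 588 and 621 in the values reported, 779 and 488 with quantile normalization, 848 and 521 with raw foreground, 772 and 483 in the authors' table and 403 and 620 with the percentile over detected probes. Precision is limited by 3 arrays a group and, for MRN1, by signal at background.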
